A study of Mus musculus with 6 samples.

Results

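Small nucleolar RNAs (snoRNAs) and small Cajal body RNAs (scaRNAs) were examined in mouse kidney as the genes of the deposited tables whose Ensembl ID maps to a symbol of Snord, Snora or Scarna followed by a digit. Of 57180 genes listed, 113 met this rule: 70 Snord genes (box C/D class), 37 Snora genes (box H/ACA class) and 6 Scarna genes (Cajal body class). The kidneys came from 6 wild-type male C57BL/6J mice that were 7 weeks old at purchase. The vehicle group, 3 mice, received deionized water (0 mg/kg). The nanoplastic group, 3 mice, received cationic polystyrene nanoparticles at 200 mg/kg, by mouth once a day for 6 weeks. Each mouse gave 1 library of whole-kidney total RNA, with 19408534 to 26292760 expected counts, so that fewer cells of a type and less RNA per cell cannot be told apart.

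Box C/D snoRNAs guide 2'-O-methylation and box H/ACA snoRNAs guide pseudouridylation of ribosomal RNA, each as a particle with its own set of core proteins. A few, such as Snora73a, Snora73b and Snord22, are known for pre-rRNA cleavage rather than for modification. ScaRNAs carry the same boxes, gather in Cajal bodies and guide the modification of spliceosomal RNAs, and some join a C/D and an H/ACA domain in 1 molecule. Most mammalian snoRNAs are cut from introns of host genes, many of which encode ribosomal proteins or are noncoding transcripts of the Snhg family.

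The sequences of the members on which the counts turned are given from the GENCODE vM21 transcripts (GRCm38 annotation), which held all 113 members at the length given in the tables. Capitals mark a box C (ATGATGA or GTGATGA within the first 15 bases), a box D (CTGA within the last 12 bases) or the ACA that precedes the final 3 bases. The search was made on the transcript strand only. The 3 Scarna genes with more than 1 count are the longest members, and of Scarna10 (325 bases) and Scarna2 (414 bases) the first 300 bases are given. No box C was found in Scarna2:
Scarna10: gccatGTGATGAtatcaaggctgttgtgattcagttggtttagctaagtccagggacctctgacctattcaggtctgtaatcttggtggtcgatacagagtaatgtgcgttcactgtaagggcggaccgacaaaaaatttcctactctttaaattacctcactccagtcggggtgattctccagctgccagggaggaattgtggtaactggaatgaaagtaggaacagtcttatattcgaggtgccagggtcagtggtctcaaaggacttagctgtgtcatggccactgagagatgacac
Scarna2: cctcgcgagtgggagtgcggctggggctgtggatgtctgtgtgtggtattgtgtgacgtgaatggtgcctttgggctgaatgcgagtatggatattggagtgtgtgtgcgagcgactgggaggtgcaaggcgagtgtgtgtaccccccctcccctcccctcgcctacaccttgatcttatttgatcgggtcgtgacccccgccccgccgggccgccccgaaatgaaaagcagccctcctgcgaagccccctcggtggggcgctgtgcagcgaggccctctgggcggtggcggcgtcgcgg
Scarna6: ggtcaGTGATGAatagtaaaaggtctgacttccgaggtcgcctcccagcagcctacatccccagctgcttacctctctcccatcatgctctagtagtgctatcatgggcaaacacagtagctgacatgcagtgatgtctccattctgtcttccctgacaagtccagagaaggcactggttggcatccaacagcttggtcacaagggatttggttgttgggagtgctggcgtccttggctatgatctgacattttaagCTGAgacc

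Snora73a and Snora73b are near-identical copies of 205 bases with an edit distance of 7 (96.6% identity), which can share reads. Snora7a was the only tested member whose groups did not overlap, where those of 12.9% of all genes tested did not:
Snora73a: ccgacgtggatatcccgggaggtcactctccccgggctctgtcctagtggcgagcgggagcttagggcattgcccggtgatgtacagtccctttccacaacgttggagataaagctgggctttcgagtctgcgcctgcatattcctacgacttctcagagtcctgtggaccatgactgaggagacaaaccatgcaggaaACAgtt
Snora73b: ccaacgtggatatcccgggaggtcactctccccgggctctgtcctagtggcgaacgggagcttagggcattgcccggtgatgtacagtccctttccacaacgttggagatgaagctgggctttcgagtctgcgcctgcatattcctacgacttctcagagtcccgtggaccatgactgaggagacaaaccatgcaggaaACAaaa
Snora7a: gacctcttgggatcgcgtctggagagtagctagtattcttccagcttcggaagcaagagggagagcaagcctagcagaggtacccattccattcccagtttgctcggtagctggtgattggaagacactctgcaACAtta

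Snord17 had the most counts of the box C/D members. Snord15b and Snord15a share the host Rps3 but only 64.2% of their bases. Snord37, the shortest member at 64 bases, had no count and was chosen after its values were seen, to show the size of a short box C/D RNA:
Snord17: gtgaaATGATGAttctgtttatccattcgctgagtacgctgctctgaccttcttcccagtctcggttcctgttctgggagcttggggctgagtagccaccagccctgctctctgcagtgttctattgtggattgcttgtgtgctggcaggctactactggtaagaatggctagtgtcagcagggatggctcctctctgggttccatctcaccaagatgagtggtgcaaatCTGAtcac
Snord15b: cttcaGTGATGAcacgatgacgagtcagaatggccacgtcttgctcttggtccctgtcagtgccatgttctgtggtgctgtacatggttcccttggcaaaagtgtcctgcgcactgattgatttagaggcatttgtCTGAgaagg
Snord15a: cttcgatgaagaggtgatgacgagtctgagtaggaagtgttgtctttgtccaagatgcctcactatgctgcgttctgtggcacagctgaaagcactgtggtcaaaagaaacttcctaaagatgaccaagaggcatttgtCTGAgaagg
Snord37: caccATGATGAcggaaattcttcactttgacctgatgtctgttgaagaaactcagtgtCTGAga

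A box C was found in 37 of 70 Snord and 4 of 6 Scarna genes and in 0 of 37 Snora genes, against 0.389% of all 141749 annotated transcripts in the same 15-base window. A box D was found in 57 Snord, 5 Scarna and 3 Snora genes, against 5.76% of transcripts. The terminal ACA was found in 30 of 37 Snora genes, in 1 Scarna gene and in 0 Snord genes, against 2.45% of transcripts. The boxes were thus found mainly in the class that the symbol gives. The annotation called 108 members snoRNA, 4 scaRNA and 1 miRNA.

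Detection followed length. Among the 113 members, 49 had a count in at least 1 library, 16 had a count in all 6 libraries, and 64 had no count. Of the 60 members shorter than 100 bases, 6 had any count and together they held 12.88 counts over the 6 libraries. Of the 36 members of 125 to 149 bases, 30 had a count and 5 reached a mean of 10 counts per library. Of the 3 members of 150 to 199 bases, 3 had a count and 1 reached that mean. Of the others, Snora23 (184 bases) had a mean of 7.83 counts and Snora81 (178 bases) held 0.04 counts in all. All 6 members of 200 bases or more had a mean above 10 counts, and they held 85.7% of all member counts. The longest member without a count measured 137 bases, and the shortest with a mean of at least 10 counts measured 126 bases. RSEM, which divides counts by the number of start positions open to a fragment, gave 67 members an effective length of 0 bases in every library, and these held 17.88 counts in all. The mean fragment length implied by the effective lengths of long genes was 197.0 to 212.4 bases in vehicle and 198.6 to 203.5 bases in nanoplastic libraries. A count of 0 allows up to 3 counts in a library, and for short members it was not detectable in these libraries whether the RNA was present.

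**Figure D1:**
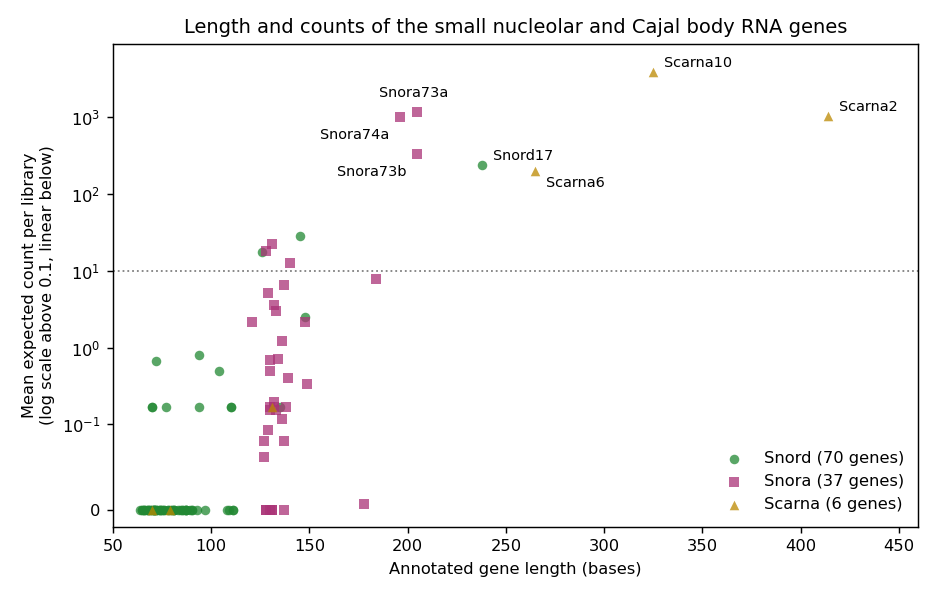
Mean expected count per library over the 6 libraries (vertical axis, log scale above 0.1 and linear below) against annotated gene length in bases (horizontal axis), with 1 point per gene for 70 Snord, 37 Snora and 6 Scarna genes. The dotted line marks a mean of 10 counts, which all 6 genes of 200 bases or more exceed and which no gene shorter than 126 bases reaches.

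Most members without a count lay in hosts that could be tested. A host, the gene of the same strand whose annotated span holds the member, was found for 104 of 113 members and for 63 of the 64 members without a count. Those 63 members had 47 hosts, of which 46 passed the filter. The hosts ranged widely in level, from AA465934, which holds Snord7, at 0.446 CPM in vehicle kidneys, to the ATP synthase gene Atp5b, which holds Snord59a, at 2725 CPM, and Htr2c, which holds Snora35, did not pass. Rpl13a, which encodes a protein of the large ribosomal subunit and holds Snord32a, Snord34 and Snord35a, stood at 277.4 ± 21.6 in vehicle and 281.1 ± 15.2 in nanoplastic kidneys, in CPM, counts scaled to a common library total (SD, n = 3 each; CPM of single genes is TMM-scaled, and CPM of summed genes is relative to the plain library total). These 3 box C/D RNAs had 0 counts in all 6 libraries. Gas5, a noncoding host, stood at 58.9 ± 6.12 in vehicle and 57.0 ± 5.84 CPM in nanoplastic kidneys (SD, n = 3 each), and its members Snord47, Snord78 and Snord80 held 1 count in all.

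The box classes differed in how much of the counts they held. All members together took 0.0291% to 0.0374% of a library. Over the 6 libraries the Scarna genes took 63.7% of member counts, the Snora genes 32.7% and the Snord genes, the largest class by number, 3.63%. Scarna10 alone took 48.3%, and the 7 members with the most counts, which were Scarna10, Snora73a, Scarna2, Snora74a, Snora73b, Snord17 and Scarna6, took 98.2%. Per length the order was another: in TPM, RSEM's abundance per effective length, Snora73a stood at 900 ± 80.4 and Snora74a at 896 ± 85.6 in vehicle kidneys, above Scarna10 at 680 ± 57.6 (SD, n = 3 each). In nanoplastic kidneys the same 3 genes stood at 942.5 ± 143, 996.5 ± 133 and 667 ± 39.7 TPM (SD, n = 3 each). Over the libraries the effective length was 25.26 to 31.05 bases for Snora73a and 20.43 to 25.47 for Snora74a. For Scarna10 it was 119.65 to 132.48 bases. The order in TPM thus rests on short effective lengths and is uncertain.

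In summed CPM, the Scarna class measured 226.4, 230.3 and 191.5 in vehicle mice 1, 2 and 3 and 232.2, 208.3 and 210.4 in nanoplastic mice 1, 2 and 3. The Snora class measured 128.7, 98.4 and 89.5 in vehicle and 128.7, 97.4 and 125.6 in nanoplastic. The Snord class measured 13.9, 12.1 and 10.4 in vehicle and 13.3, 11.4 and 13.1 in nanoplastic. In each class the groups overlapped, vehicle 3 was the lowest of the 6 libraries, and the group means differed by less than the spread between mice.

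**Figure D2:**
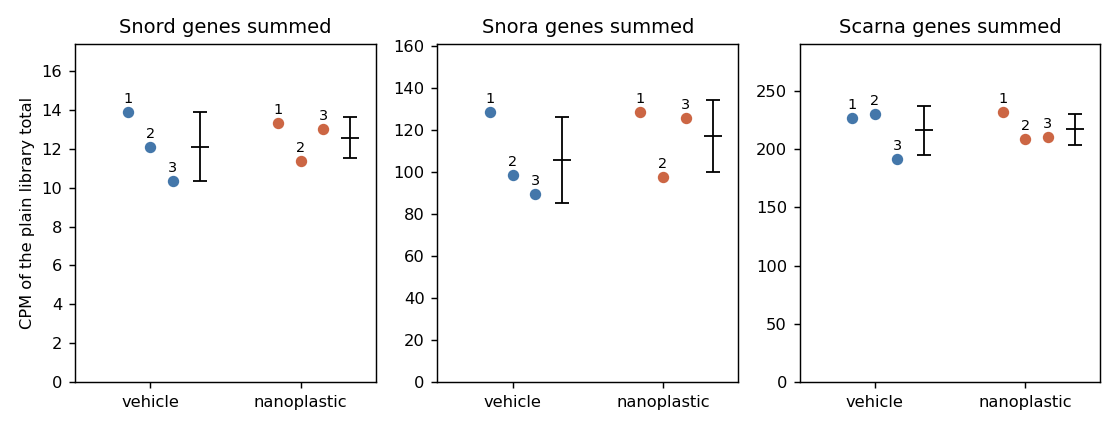
Expected counts in CPM of the plain library total, summed over the Snord, Snora and Scarna genes (1 panel each, axes from 0), for 3 vehicle and 3 nanoplastic mice numbered as in the labels, with the mean and SD as a bar beside the points. The groups overlap in all 3 panels, with vehicle mouse 3 lowest in each.

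After the filter on low counts 12 members could be tested, 3 Snord, 6 Snora and 3 Scarna genes. In edgeR's quasi-likelihood test over 18092 genes, 0 members passed a Benjamini-Hochberg adjusted p of 0.05, where the background was 0% (0 of 18092 genes). At an unadjusted p under 0.05 there were also 0 members, with a background of 7.19% (3.69% higher and 3.5% lower). Without vehicle 1 Snora74a and Snord15b were under it, and without vehicle 3 Scarna10 and Snora7a, and none of these passed after adjustment. The 7.19% is from the fit with all 6 libraries. The share of all genes in the fits with a library left out is not given here. After adjustment limma-voom called 0 of 12, and DESeq2 called 0 of the 7 for which it gave an adjusted p. Of the 12 members, 7 had a positive and 5 a negative log2 fold change, where 51.9% of all genes were positive and 48.1% negative. The median was 0.052, against 0.0067 over all genes. By class it was -0.014 for Snord, 0.10 for Snora and 0.030 for Scarna genes. The 95% confidence interval lay within a 2-fold change in either direction for 8 of the 12, against 83.9% of all genes.

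In the Cajal body class, Scarna10 had the most counts of all members. It measured 174.6, 186.0 and 143.8 CPM in vehicle mice 1, 2 and 3 and 163.1, 157.7 and 161.7 CPM in nanoplastic mice 1, 2 and 3. The nanoplastic values fell inside the vehicle range and were closer to each other, with an SD of 2.81 against 21.8 CPM (n = 3 each). The log2 fold change was -0.064 (SE 0.090, 95% interval -0.26 to 0.13, edgeR adjusted p = 0.895). Its host Ncapd2, a condensin subunit, averaged 6.21 CPM in vehicle (SD 0.313) and 5.97 CPM in nanoplastic kidneys (SD 1.296, n = 3 each). Scarna10 overlaps an annotated retained intron of that gene and its counts were not whole in 5 of 6 libraries, so reads may be divided between them.

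Scarna2, for which the annotation gave no host, measured 48.0, 42.6 and 39.6 CPM in vehicle and 49.6, 42.1 and 41.1 CPM in nanoplastic mice. Its log2 fold change was 0.030 (SE 0.10, 95% interval -0.18 to 0.24). Scarna6, in an intron of the autophagy gene Atg16l1, measured 9.31, 8.54 and 7.22 CPM in vehicle and 9.75, 7.14 and 9.57 CPM in nanoplastic mice, with a log2 fold change of 0.074 (SE 0.15). In both genes vehicle 3 was the lowest vehicle mouse and nanoplastic 1 the highest nanoplastic mouse, and the groups overlapped. Their counts were whole in all 6 libraries. Scarna8 had 1 count in vehicle 1, and Scarna9 and Scarna17 had none.

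The order within the class was the same in every mouse on a scale that allows for length. In TPM, Scarna10 stood 5.47 to 7.46 times above Scarna2 and 9.70 to 12.9 times above Scarna6 over the 6 libraries. The ratio to Scarna2 was 6.54 ± 0.802 in vehicle and 6.10 ± 0.577 in nanoplastic kidneys (SD, n = 3 each), a difference within the spread between mice.

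In the box H/ACA class the reads came mainly from Snora73a, Snora73b and Snora74a, the last a guide RNA hosted in a noncoding gene. Snora73a measured 59.2, 49.3 and 39.9 CPM in vehicle and 56.6, 43.8 and 56.2 CPM in nanoplastic mice (log2 fold change 0.076, SE 0.14, 95% interval -0.23 to 0.38). Snora73b measured 17.0, 12.1 and 11.6 CPM in vehicle and 15.8, 10.9 and 18.1 CPM in nanoplastic mice (log2 fold change 0.13, SE 0.19). Vehicle 1 and nanoplastic 1 and 3 were the 3 highest libraries for both copies. Because the copies can exchange reads, they were also summed, in a test chosen after the data were seen, and the sum averaged 63.0 ± 12.4 CPM in vehicle and 67.1 ± 10.8 CPM in nanoplastic kidneys (SD, n = 3 each). Its log2 fold change was 0.089 with an SE of 0.15, and the edgeR adjusted p was 0.911. The ratio of Snora73a to Snora73b counts was 3.66 ± 0.351 in vehicle and 3.57 ± 0.457 in nanoplastic kidneys (SD, n = 3 each).

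Snora74a measured 50.4, 36.4 and 33.6 CPM in vehicle and 47.8, 38.8 and 48.9 CPM in nanoplastic mice. The same 3 libraries were highest as for the Snora73 copies, and the groups overlapped through vehicle 1. The log2 fold change was 0.17 (SE 0.14, 95% interval -0.15 to 0.48), and it moved to 0.37 without vehicle 1 (edgeR adjusted p = 0.637). The noncoding gene AC121821.1, the one of its 2 annotated hosts with more counts, had a log2 fold change of 0.20 (SE 0.14).

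Snora7a was the only tested member whose groups did not overlap, where 12.9% of all genes tested did not and 6.32% were separate and lower in nanoplastic mice. It measured 0.701, 0.780 and 0.552 CPM in vehicle and 0.487, 0.376 and 0.312 CPM in nanoplastic mice, which rests on 18.02, 18.18 and 12.96 against 11.98, 8.87 and 5.72 expected counts. The log2 fold change was -0.77 (SE 0.36, 95% interval -1.56 to 0.02, edgeR unadjusted p = 0.0559, adjusted p = 0.694). Its host Rpl32, a ribosomal protein gene, averaged 177.7 CPM in vehicle (SD 14.1) and 178.1 CPM in nanoplastic kidneys (SD 8.76, n = 3 each), a log2 fold change of 0.0028. Snora7a overlaps an exon of a protein-coding Rpl32 transcript in the annotation and its counts were not whole in any library, so its reads may be divided with its host and its value is uncertain.

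The other tested H/ACA members were near 1 CPM. Snora68 measured 1.05, 0.997 and 0.977 CPM in vehicle and 0.893, 1.04 and 0.728 CPM in nanoplastic mice, with overlapping groups and counts that were not whole in any library. Snora78, hosted in Snhg9, measured 1.01, 0.564 and 0.595 CPM in vehicle and 0.569, 0.626 and 1.35 CPM in nanoplastic mice. Its log2 fold change of 0.19 (SE 0.42) rested on nanoplastic 3 and was -0.28 without it. Rps2 lies on the opposite strand at Snora78, and reads of the 2 cannot be told apart where the strand was not kept.

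**Figure D3:**
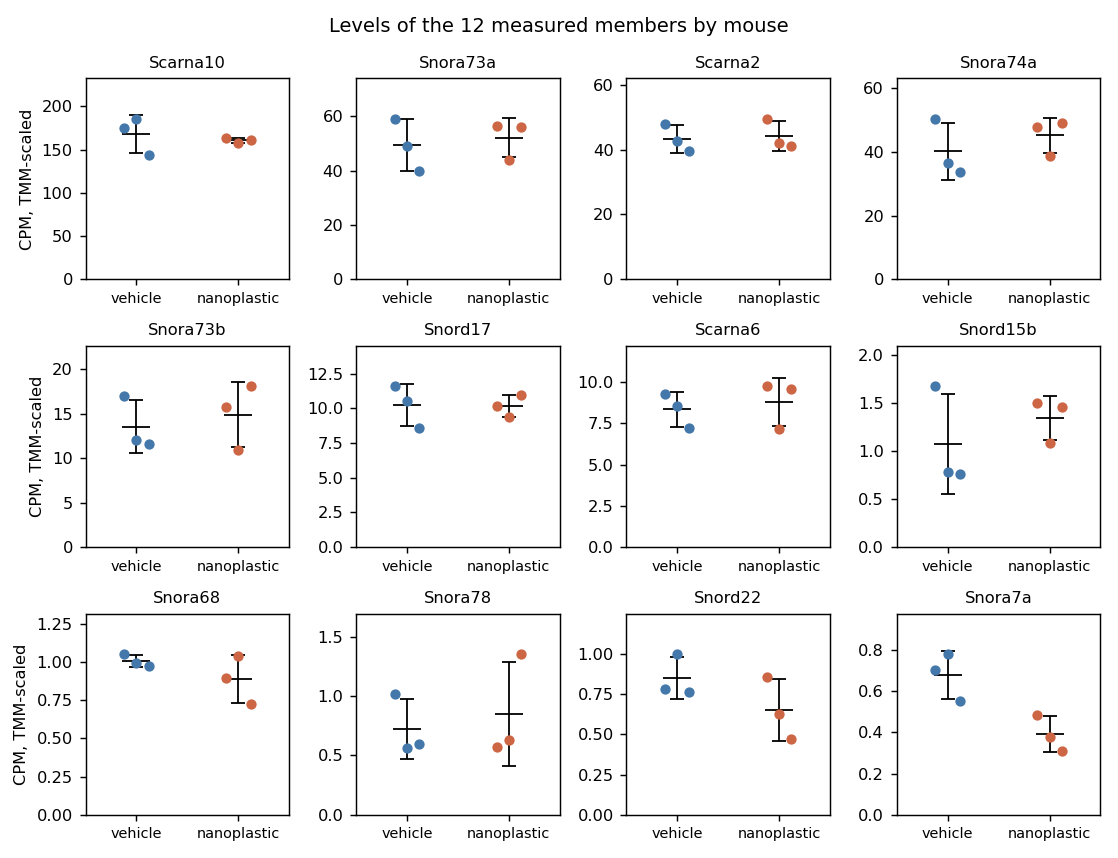
TMM-scaled CPM (vertical axes, from 0) of the 12 tested members, 1 panel each, with 1 point per mouse (mice 1, 2 and 3 from left to right) for 3 vehicle and 3 nanoplastic kidneys and the mean and SD as bars. Snora7a is the only panel in which the groups do not overlap, at 0.552 to 0.780 CPM in vehicle and 0.312 to 0.487 CPM in nanoplastic mice. Over all genes tested, the groups do not overlap in 12.9%.

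Below the filter, 25 further Snora genes had a count in some library. Snora23, which lies in an intron of the nuclear import gene Ipo7 with 1600010M07Rik on the opposite strand, had 9, 11 and 12 counts in vehicle and 4, 3 and 8 in nanoplastic mice. Snora9, which overlaps an exon of Snhg15, had 8.87, 2.88 and 4.76 counts in vehicle and 0, 0.73 and 0.87 in nanoplastic mice. The members below the filter that are named here were singled out after their values were seen, other than the box C/D members Snord15a, Snord21 and Snord49b. Tested without the filter, Snora9 had an unadjusted p of 0.0118 and an adjusted p of 0.440, and Snora23 an unadjusted p of 0.103. Snora3, hosted in Rpl27a, had 12.73 counts in vehicle 1 and at most 3.88 in any other library. Snora21 had 20 counts over the vehicle and 19 over the nanoplastic libraries. The CPM summed over the 25 genes was 2.39, 1.24 and 1.78 in vehicle and 1.19, 1.14 and 1.26 in nanoplastic mice, so that vehicle 2 lay within the nanoplastic range.

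In the box C/D class 3 genes could be tested. Snord17, in an intron of the sorting nexin gene Snx5, measured 11.6, 10.5 and 8.58 CPM in vehicle and 10.2, 9.35 and 10.9 CPM in nanoplastic mice. Its groups overlapped and its counts were whole, with a log2 fold change of -0.014 (SE 0.13, 95% interval -0.30 to 0.27). Snord15b, in the ribosomal protein gene Rps3, measured 1.68, 0.780 and 0.765 CPM in vehicle and 1.5025, 1.09 and 1.46 CPM in nanoplastic mice. Vehicle 1 was the highest of all 6, the other 2 vehicle mice were the lowest, and the log2 fold change was 0.31 (SE 0.35), or 0.80 without vehicle 1. Its relative Snord15a, of similar length and with the same host, had 2 counts in each vehicle and 3 in each nanoplastic library, against 169.96 for Snord15b over the 6 libraries. Snord15b overlaps a retained intron of Rps3 and its counts were not whole, so its reads may be divided with the host, while the counts of Snord15a were whole.

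Snord22, in the noncoding host Snhg1, measured 0.779, 0.997 and 0.765 CPM in vehicle and 0.853, 0.626 and 0.468 CPM in nanoplastic mice, with overlapping groups (log2 fold change -0.36, SE 0.33). It overlaps annotated exons of Snhg1, its counts were not whole, and Snhg1 itself stood at 12.0 ± 0.740 and 12.0 ± 2.18 CPM (SD, n = 3 each). Snord118, which is needed for maturation of the large ribosomal subunit, had 1 count, and Snord13 had 3 counts over the 6 libraries. Snord21, hosted in Rpl5, had 4.88 counts and Snord49b had 4 over the 6 libraries. The 11 Snord genes with a count below the filter held 15.94 counts in vehicle and 17.94 in nanoplastic libraries.

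Host genes of the tested members gave no call, and whether they were equal between the groups was not tested. Of 10 hosts 9 could be tested, with log2 fold changes from -0.05 to 0.20 and 0 past the threshold. Over the hosts of all 113 members, 76 of 78 could be tested, 41 were positive and 35 negative, the median was 0.0053, and 0 had an unadjusted p under 0.05. The 12 members ranged more widely, from -0.77 to 0.31, but the members at both ends had few counts. The log2 fold change of the member minus that of its host was -0.77 for Snora7a, -0.36 for Snord22 and 0.33 for Snord15b. These members had an SE of 0.36, 0.33 and 0.35, against 0.075, 0.14 and 0.076 for their hosts Rpl32, Snhg1 and Rps3. For 6 others, Scarna10, Snora73a, Snora73b, Snora74a, Snord17 and Scarna6, the difference lay between -0.036 and 0.11, with Snora73b at 0.086 and Scarna6 at 0.11. Snora73a and Snora73b lie in both Rcc1 and Snhg3, and Rcc1, which had more counts, was taken as the host. The log2 fold change was 0.043 (SE 0.11) for Rcc1 and 0.028 (SE 0.17) for Snhg3. The differences were not tested.

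**Figure D4:**
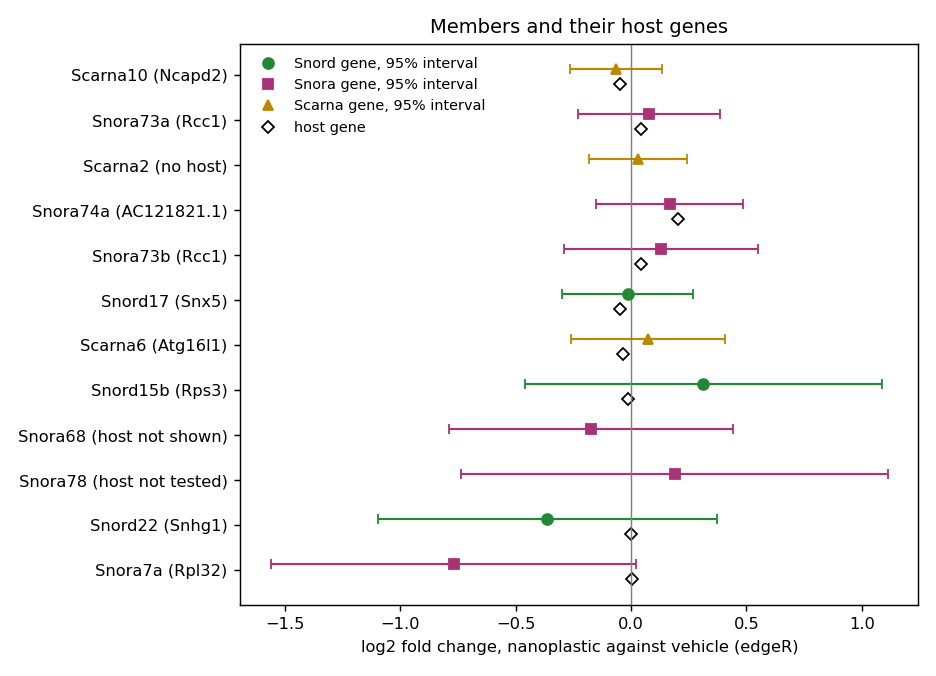
log2 fold change of nanoplastic against vehicle (edgeR) for the 12 tested members, in order of counts, with 95% confidence intervals, and for the host genes named in parentheses (open diamonds). The intervals of the 5 rarest members are the widest, all 12 intervals include 0, and the hosts shown lie between -0.05 and 0.20.

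Genes of the snoRNA particles and of their assembly also gave no call. The 4 box C/D core proteins were all negative with a median log2 fold change of -0.091, and 0 of 4 passed the test. Nop58 averaged 19.8 CPM in vehicle (SD 1.29) and 17.9 CPM in nanoplastic kidneys (SD 0.381, n = 3 each), a log2 fold change of -0.15. Fbl, the methyltransferase fibrillarin, averaged 9.14 CPM (SD 0.501) and 8.43 CPM (SD 0.943, n = 3 each). Among the 4 H/ACA core proteins 0 passed. Nhp2 measured 37.0, 36.6 and 34.0 CPM in vehicle and 28.1, 27.97 and 34.4 CPM in nanoplastic mice (log2 fold change -0.25, SE 0.09, edgeR unadjusted p = 0.0174, adjusted p = 0.607), and the groups overlapped through nanoplastic 3. Dkc1, the pseudouridine synthase dyskerin, averaged 12.99 CPM in vehicle (SD 0.882) and 13.97 CPM in nanoplastic kidneys (SD 0.518, n = 3 each).

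Of 12 assembly factors, 4 were positive, 8 negative and 0 past the threshold, with Nolc1 at -0.21 (SE 0.09) and Ruvbl1, a helicase of the assembly complex, at -0.15 (SE 0.08) in log2 fold change. The 8 Cajal body proteins were split 4 and 4, with Uspl1 at -0.17 (SE 0.09) and Coil, which encodes the scaffold coilin, at 0.18 (SE 0.13). Of 16 tested genes of snoRNA trimming and decay, 10 were positive and 0 passed. The 2 of lowest p were the exosome subunits Exosc7 at -0.17 (SE 0.08) and Exosc3 at -0.25 (SE 0.12). Outside that choice, the other tested Exosc genes ran from -0.0059 for Exosc8 to 0.13 for Exosc4. Of 14 genes of RNA polymerase I and rRNA synthesis, 11 were positive and 0 passed, with the initiation factor Rrn3 at -0.16 (SE 0.07) and Taf1a at 0.34 (SE 0.16). Of 18 tested noncoding host genes, 14 were positive and 0 passed, with Snhg20 at 0.23 (SE 0.11) and Zfas1 at 0.18 (SE 0.10).

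Among 9 tested genes of the fixed list of other short RNAs, 8 were positive and 1 negative, where 51.9% of all genes were positive. The median log2 fold change of the 9 was 0.15, and 0 passed the threshold. Rmrp entered under separate gene IDs, at 0.015 and -0.097, and the Y RNAs Rny1 and Rny3 were among the 9. Rnu3a, the U3 RNA of pre-rRNA cleavage, is annotated as a snoRNA and measured 16.3, 10.9 and 7.61 CPM in vehicle and 12.5, 11.2 and 20.1 CPM in nanoplastic mice (log2 fold change 0.32, SE 0.27). For Rnu3a, as for the Snora73 copies, vehicle 1 and nanoplastic 1 and 3 were the 3 highest libraries, while Rnu1a1, a U1 spliceosomal RNA, was lowest in vehicle 1 and nanoplastic 1, at 4.95 and 5.04 CPM. Rnu2-10, a U2 spliceosomal RNA, had a log2 fold change of 0.27 (SE 0.20). A further 987 listed genes were annotated as snoRNA or scaRNA under other symbols, and 21 of them could be tested, Rnu3a included, with 9 positive, 12 negative, 0 past the threshold and a median of -0.08. The retained nuclear RNAs Malat1 and Kcnq1ot1 stood at -0.085 and 0.070 in log2 fold change.

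All 8 kidney markers were measured, 3 positive and 5 negative. Their sum, in which Umod is included, was 18490 to 18750 CPM in vehicle and 17350 to 18140 CPM in nanoplastic libraries, without overlap. The sum without Umod was not taken. Umod of the thick limb had a log2 fold change of -0.33 (SE 0.10) and Aqp2 of the collecting duct of 0.65 (SE 0.34), neither past the threshold. Aqp2 measured 58.8, 61.7 and 43.3 CPM in vehicle and 148.7, 61.1 and 46.1 CPM in nanoplastic mice, so its value rested on nanoplastic 1. Of the 8 markers only Umod had separate groups, lower in nanoplastic mice, as were those of 6.32% of all genes tested. The 6 adipocyte markers summed to 27.8 CPM in vehicle 3 and 110.7 in nanoplastic 1 and to at most 0.632 in the other 4 libraries, where Plin1 had 0 counts in each. The 6 urothelial markers summed to 19.2 in nanoplastic 1 and to 1.79 to 5.33 in the others, with Upk1b at a log2 fold change of 1.31 (SE 0.73) and Upk3a at 1.15 (SE 0.64). The 5 erythrocyte markers summed to 582.1 to 835.8 in vehicle and 490.9 to 653.5 in nanoplastic libraries. All 5 were negative at an edgeR unadjusted p under 0.05, where 3.5% of all genes were. Past the adjusted threshold there were 0 of the 5 (Hbb-bt -0.59, Alas2 -0.51 in log2 fold change). The groups were separate for Hbb-bt and Alas2 and overlapped for Hba-a1, Hba-a2 and Hbb-bs. Without the filter Hbb-bt had an adjusted p of 0.000214 and Alas2 of 0.0163 in edgeR. Without vehicle 3 and nanoplastic 1, 0 members passed, the log2 fold change of Scarna10 was -0.17 (adjusted p = 0.472) and that of Snora7a -1.08 (adjusted p = 0.498). Snora73a, Snora73b, Scarna2 and Scarna6 then had negative log2 fold changes, and that of Snora74a was 0.014. The part of other cell types in these values was not tested.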

How the data were processed

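Kidney RNA of 6 mice was sequenced as 1 library each. The tools and build named in the submitters' processing notes are STAR 2.7.9a, RSEM 1.3.3, Trim Galore 0.6.6 and FastQC, on GRCm39. The annotation release, the library kit and its strand setting are not given in the sources used here. Expected counts per gene from RSEM, not normalized, are the values that the authors deposited, with TPM, FPKM and gene lengths, per the file headers. TPM as deposited by the authors is scaled by effective length and served for ratios between genes and in an alternative. The deposited FPKM column played no part.

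Symbols came from a table of gene IDs, which named 51884 of 57180 genes. A further 8 member names found by transcript ID only were not included and held at most 1 count each. Hosts, gene types and sequences came from GENCODE vM21, which is on GRCm38, so no coordinates are given. The members and gene lists were chosen with earlier results of these data known.

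Expected counts were rounded to whole numbers, filtered with filterByExpr (minimum count 10, minimum total 15), normalized by TMM and compared by edgeR's quasi-likelihood test (version 4.0.16, R 4.3.3, glmQLFit then glmQLFTest, with no covariate), with Benjamini-Hochberg adjustment over 18092 genes. SE is the log2 fold change over the root of F, intervals are 95% intervals, and CPM of single genes is scaled by TMM. Counts were called whole within 0.005. The labels describe separate mice. Totals of 19408534 to 26292760 counts put the median half-width of the interval at 0.28 log2 units over all genes and at 0.38 over the 12 members. The sources used here name no molecular identifiers. The alternatives were other scalings, filters, tools (DESeq2 1.42.0, limma 3.58.1), TPM with a pseudocount of 0.1, libraries left out and a replicate block. The edgeR step was tested on simulated data with a common dispersion for all genes. Changes were simulated only in genes with more counts than Snora68, Snora78, Snord22 and Snora7a, so it does not cover these members. The named members were every tested Scarna gene and, of Snord and Snora each, the 6 with the highest mean count, the 3 positive and 3 negative ones of lowest p and the 2 rarest tested, with their hosts (1 host is not reported here) and the 2 tested genes of lowest p in each list; other names are marked as exceptions. The limit for a count of 0 covers counting error only.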

Additional observations from a re-analysis of the deposited data

How the results depend on the processing

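No member passed the threshold under any of the 17 alternatives, of which DESeq2 gave no adjusted p for 5 members. Of 699 values recomputed for 44 named genes, 648 kept their direction and their side of the threshold. The number of genes called, 0 in edgeR, was 207 with no filter, 58 with DESeq2's Wald test and 28 without the 2 libraries with adipocyte transcripts (vehicle 3 and nanoplastic 1), and 0 to 5 with 1 library left out (5 without nanoplastic 1 and 1 without nanoplastic 3). The Snora median log2 fold change was -0.18 with no filter over 27 genes, and the Scarna median was -0.12 without the 2 libraries. The host median was 0.047 with library size alone, 0.056 on log2(TPM + 0.1) and -0.063 without the 2 libraries. In edgeR with all libraries, 0 members had an unadjusted p under 0.05. Snora7a and Scarna10 had one without the 2 libraries and without vehicle 3, and Snora74a and Snord15b without vehicle 1. Snora7a also had one on log2(TPM + 0.1), and Snora9 with no filter. The share of all genes under 0.05 in these settings is not given here, so these members have no background beside them. Hbb-bt passed the adjusted threshold with no filter (adjusted p = 0.000214), with DESeq2's Wald test (0.00607) and without the 2 libraries (0.0163), and Alas2 with no filter (0.0163) and without the 2 libraries (0.0410). In some genes the sign turned. With library size alone the log2 fold change was 0.032 for Snord17, 0.033 for Rps3, 0.0070 for Atg16l1 and 0.047 for Snhg1. On log2(TPM + 0.1) it was 0.047 for Atg16l1, 0.054 for Snhg1, 0.075 for Rps3 and 0.058 for Malat1. For Snhg1 it was 0.0070 with scaling from protein-coding genes and 0.0045 with a mean count of at least 50. For Rpl32 it was -0.00027 with DESeq2's size factors, -0.00036 with its Wald test and -0.0043 with no filter. Without the 2 libraries it was -0.12 for Snora73a and Scarna2, -0.018 for Snora73b, -0.10 for Scarna6, 0.016 for Atg16l1, -0.063 for Rpl32, -0.16 for Aqp2, -0.66 for Upk1b and -0.46 for Upk3a. The cause of these changes was not tested.

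With 1 library left out, the range was -0.12 to 0.087 for Snord17 and for the Snord median, -0.16 to 0.014 for Scarna10, -0.058 to 0.11 for Scarna2 and for the Scarna median, -0.020 to 0.21 for Scarna6, -0.057 to 0.23 for Snora73a, -0.027 to 0.33 for Snora73b, -0.28 to 0.52 for Snora78 and -0.044 to 0.28 for the Snora median. Among other genes it was -0.081 to 0.026 for Rps3, -0.074 to 0.14 for Snhg1, -0.062 to 0.042 for Rpl32, -0.067 to 0.0099 for Atg16l1, -0.15 to 0.11 for Ncapd2, -0.046 to 0.10 for Rcc1, -0.021 to 0.94 for Aqp2, -0.34 to 1.79 for Upk1b and -0.068 to 1.57 for Upk3a.

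The labels tie same-numbered mice by number alone and do not say what else they share. Correlations of their deviations were 0.0436, -0.023 and 0.103, against -0.122 to 0.0763 between differently numbered mice. With the replicate block 0 genes and 0 members were called, as without it. Depth sets a limit on counts of 0, and among the 5 tested members with a mean under 30 counts the 95% interval reached past a 2-fold change for Snord15b, Snora78, Snord22 and Snora7a but not for Snora68.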
